A study of Mus musculus with 12 samples.

Results

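The SLC25 family holds the carrier proteins of the mitochondrial inner membrane, and its genes were compared between progenitors, erythroblasts and megakaryocytes derived from mouse fetal liver. Members were taken by name: every gene on the array whose symbol is Slc25a followed by a number, apart from *Slc25a37* and *Slc25a38*, which act with heme synthesis and were set aside by the rule. This gave 44 genes of the 19937 measured. Each gene was read from a probe set assigned to it alone, and where a gene had several, from the one with the highest mean over all arrays.

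The 3 populations compared came from fetal liver of E14.5 embryos, with 4 biological replicate arrays each. Hematopoietic stem and progenitor cells (HSPC, labelled HSC in the deposited data) were sorted as lineage-negative, Sca1-positive cells. Erythroblasts (ERY) were captured on Ter119 beads directly from the liver, whereas megakaryocytes (MEG) were grown in culture from KIT-positive progenitors, first with stem cell factor and thrombopoietin and then with thrombopoietin alone, and enriched on CD41 beads. No treatment or genetic change was labelled for any population, and no strain was given. MEG were thus the only cultured cells, so lineage and culture cannot be told apart in comparisons with MEG. HSPC served as the reference for both lineages, and those 4 arrays are shared by both comparisons.

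SLC25 carriers are made in the cytosol, pass through the import pores and are inserted into the inner membrane, where most exchange one small molecule for another. They move ADP and ATP, phosphate, citrate and other carboxylates, amino acids, and the cofactors and nucleotides that mitochondria cannot make themselves. In red cell precursors, mitochondria also supply heme, whose first building blocks are glycine and succinyl-CoA and whose last step inserts iron into the ring.

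Levels are given as log2 array signal, in which a step of 1 is a doubling. They can be compared between populations for the same gene, but not between genes, whose probe sets respond differently. As a gauge of background, the 1027 olfactory receptor genes on the array had a median level of 4.45 and a 95th percentile of 5.95. In at least 1 population, 39 members lay above that percentile, as did 12883 of all genes. The other members, *Slc25a31*, *Slc25a34*, *Slc25a41*, *Slc25a48* and *Slc25a54*, lay at background in every population. A gene was called induced or repressed when it changed more than 2-fold at a false discovery rate (FDR) under 5%, adjusted over all 19937 genes.

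The erythroid and megakaryocyte markers followed the labels. The 5 erythroid markers, led by *Alas2* and *Slc4a1*, had a median level of 12.19 to 12.40 on the ERY arrays against 5.96 to 6.57 on the MEG arrays, and the 4 megakaryocyte markers stood at 12.72 to 13.04 on the MEG arrays against 7.36 to 8.18 on the ERY arrays. The 4 progenitor markers stood at 9.44 to 10.70 in HSPC, at 8.28 to 9.41 in MEG and at 6.17 to 6.51 in ERY. In MEG 3 of them were repressed, among them *Cd34*, which still averaged 11.1, and *Meis1* was induced 3.49-fold. Markers of other cells also moved with the comparisons. The median of 10 hepatocyte genes ran from 8.15 to 10.18 in HSPC, from 5.29 to 5.81 in MEG and from 10.46 to 11.28 in ERY, with 9 of the 10 induced in ERY and 7 repressed in MEG. The median of 7 macrophage genes was 6.59 to 7.44 in HSPC, 6.66 to 7.50 in MEG and 8.16 to 9.21 in ERY, where 4 were induced. The median of 4 myeloid granule genes was 11.68 to 12.14 in HSPC, 5.86 to 9.32 in MEG and 6.17 to 7.21 in ERY, and all 4 were repressed in both lineages. The HSPC arrays were not alike across all genes above background. There, 92.8% of the variance among HSPC arrays lay on 1 axis, with arrays 1 and 2 on one side and arrays 3 and 4 on the other. The erythroid marker median in HSPC was also highest on array 1, at 8.03, and was 6.27 on the lowest array. The part of admixed cells in the results was not tested. In bulk RNA, fewer cells of a type and less RNA per cell cannot be told apart.

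In ERY, 4 of the 44 carriers were induced and 9 repressed relative to HSPC. The induced genes were *Slc25a21*, *Slc25a51*, *Slc25a40* and *Slc25a16*. Repression reached the citrate, adenine nucleotide and oxoglutarate carriers, namely *Slc25a1*, *Slc25a4* and *Slc25a11*, together with *Slc25a45*, *Slc25a23*, *Slc25a22*, *Slc25a24*, *Slc25a26* and *Slc25a15*. Of all genes, 8.35% were induced and 12.3% repressed in ERY (20.6% in either direction), and of genes above background 12.7% and 18.9%. The members' shares, 9.09% and 20.5%, lay near those values. In MEG, 3 carriers were induced (*Slc25a36*, *Slc25a16* and *Slc25a24*) and 8 repressed, with *Slc25a23* and *Slc25a39* falling furthest. The corresponding shares were 8.77% and 11.4% of all genes (20.2% together) and 12.9% and 17.5% of genes above background, against 6.82% and 18.2% of members. As a group the carriers were thus called about as often as other expressed genes.

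**Figure D1:**
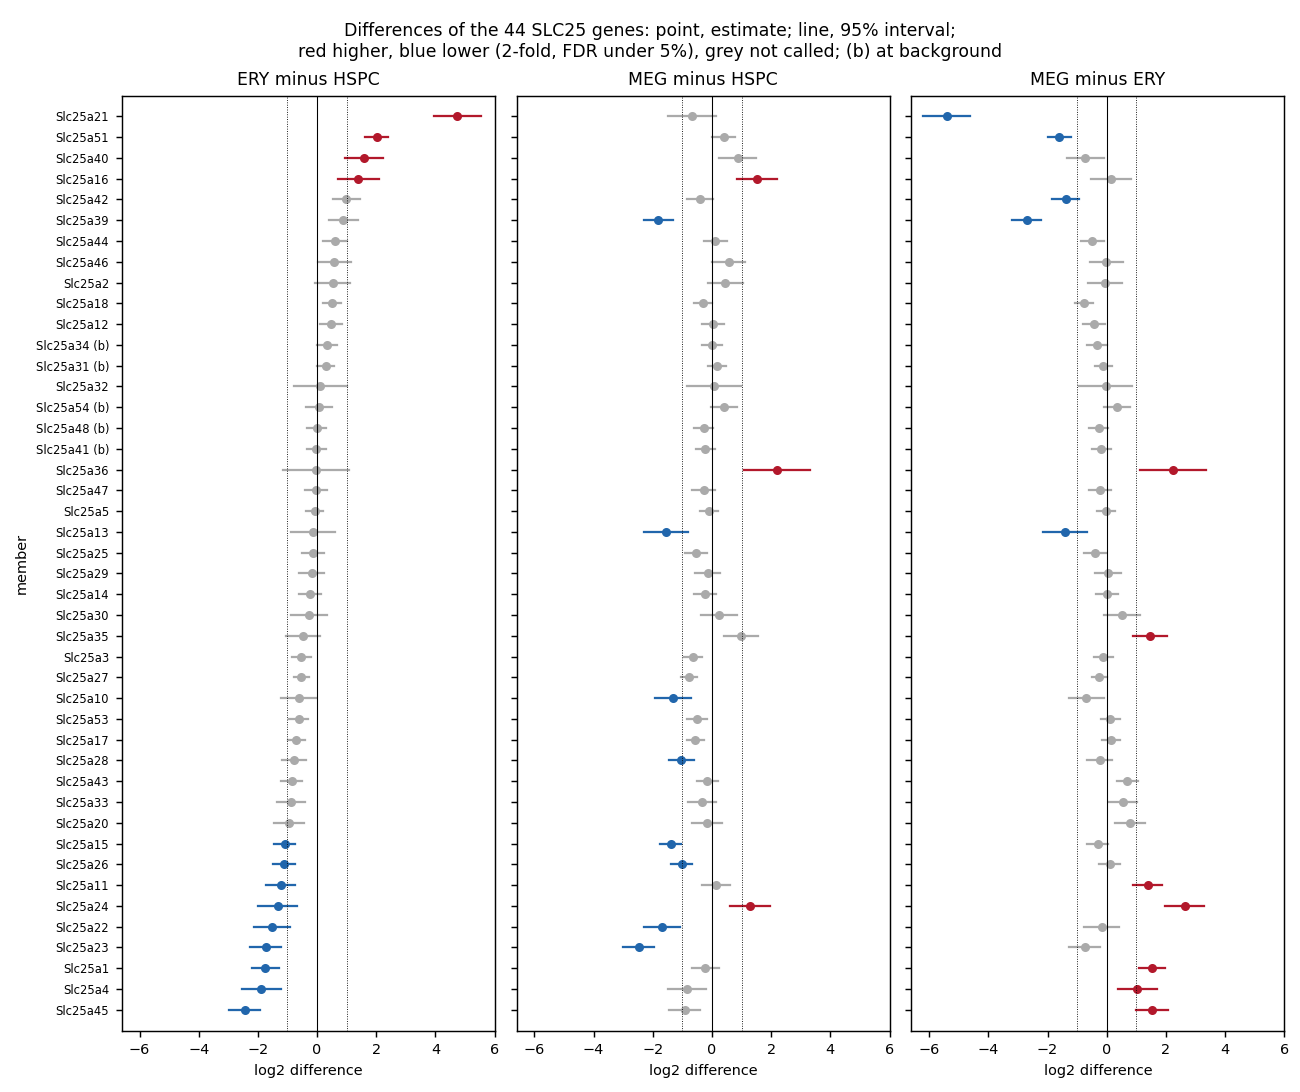
Log2 difference of each of the 44 SLC25 genes (points, with 95% intervals as lines) in ERY against HSPC, MEG against HSPC and MEG against ERY, ordered by the ERY difference; dotted lines mark 2-fold. *Slc25a21* stands at 4.74 in ERY, apart from the next member at 2.01, and 31 members in ERY, 33 in MEG and 32 between the lineages are grey (not called).

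The median member differed by -0.17 in ERY and by -0.23 in MEG on the log2 scale, against 0.03 and -0.02 for all genes. The sign of the members' medians depended on scaling. When each array was centred on its cytoplasmic ribosomal protein genes, the median difference of all genes moved up by 0.36 in ERY and 0.44 in MEG. The members' medians became 0.20 and 0.21, against 0.39 and 0.42 for all genes, so the members stayed lower than all genes. The calls then numbered 6 induced and 5 repressed in ERY, and 6 induced and 4 repressed in MEG. Replicates of the 39 members above background had a median SD of 0.15 in ERY, 0.32 in MEG and 0.37 in HSPC, close to 0.15, 0.31 and 0.36 for all genes above background.

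Among the carriers of cofactors, nucleotides and glutathione, 3 of 10 were induced in ERY and 1 was repressed. Of all genes, 8.35% were induced and 12.3% repressed in ERY, and of genes above background 12.7% and 18.9%. *Slc25a51*, which imports NAD+ into mitochondria, stood at 11.35, 11.41, 11.18 and 11.22 on the ERY arrays. Its level was 9.65, 9.37, 9.01 and 9.08 on the HSPC arrays and 10.06, 9.42, 9.81 and 9.42 on the MEG arrays. Every ERY array was above every other array. *Slc25a51* rose 4.03-fold in ERY (log2 2.01, SE 0.18, adjusted p = 3.4e-06) and was 3.05-fold higher in ERY than in MEG (adjusted p = 2.0e-05), while MEG and HSPC differed by 0.40 on the log2 scale (adjusted p = 0.106).

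*Slc25a39* and *Slc25a40* are paralogs that import glutathione, and they were called in different comparisons. *Slc25a39* measured 10.27, 11.03, 11.35 and 11.56 on the HSPC arrays, 9.25, 9.27, 9.29 and 9.13 on the MEG arrays and 11.84, 12.14, 11.84 and 11.95 on the ERY arrays. The 3 ranges did not overlap, with MEG lowest and ERY highest. It fell 3.52-fold in MEG (log2 -1.82, SE 0.23, adjusted p = 6.9e-05) and was 6.52-fold lower in MEG than in ERY (adjusted p = 1.3e-06). The difference between ERY and HSPC, 1.85-fold (adjusted p = 0.00827), was under the 2-fold threshold.

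*Slc25a40* measured 7.32, 7.08, 6.37 and 5.94 on the HSPC arrays, 7.58, 7.63, 7.85 and 7.11 on the MEG arrays and 8.76, 7.99, 8.23 and 8.09 on the ERY arrays. ERY lay above both other populations on all arrays, and 1 MEG array fell within the HSPC range. The gene rose 3.01-fold in ERY (log2 1.59, SE 0.29, adjusted p = 9.5e-04). Its second probe set, nearer background, gave 0.99 in ERY, under 2-fold, and 0.47 in MEG. In MEG the log2 difference from HSPC was 0.86 (adjusted p = 0.0364), under 2-fold, and MEG and ERY differed by -0.73 (adjusted p = 0.0918), so the order of the lineages for *Slc25a40* was not resolved.

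Coenzyme A handling is associated with *Slc25a16* and *Slc25a42*. *Slc25a16* was the 1 member induced in both lineages. It measured 8.49, 7.96, 7.18 and 7.05 on the HSPC arrays, 9.91, 9.07, 9.04 and 8.77 on the MEG arrays and 8.98, 8.78, 9.25 and 9.22 on the ERY arrays. All MEG and ERY values exceeded all HSPC values. The rise was 2.88-fold in MEG (log2 1.53, SE 0.32, adjusted p = 0.00246) and 2.62-fold in ERY (log2 1.39, SE 0.32, adjusted p = 0.00434), and the interval of the difference between lineages ran from -0.55 to 0.83. Both calls rested on HSPC arrays 3 and 4: without them the log2 differences were 0.97 and 0.83 (adjusted p = 0.0354 and 0.0603). *Slc25a42*, which exchanges coenzyme A for adenine nucleotides, averaged 8.30 in HSPC, 7.90 in MEG and 9.29 in ERY. It was 2.63-fold lower in MEG than in ERY (adjusted p = 2.0e-04), and its 1.99-fold difference between ERY and HSPC (adjusted p = 0.00231) fell just short of a call.

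*Slc25a36*, a carrier of pyrimidine nucleotides, was the member most induced in MEG. It measured 12.08, 10.86, 10.70 and 10.95 on the MEG arrays, 9.37, 8.46, 9.04 and 8.76 on the ERY arrays and 10.42, 9.48, 8.07 and 7.81 on the HSPC arrays. MEG lay above both other populations throughout, while HSPC spanned more than the whole ERY range. The rise in MEG was 4.61-fold (log2 2.20, SE 0.51, adjusted p = 0.00487), and the level in MEG was 4.73-fold that in ERY (adjusted p = 0.00502). Its second probe set gave log2 differences of 2.11 in MEG and 1.82 between MEG and ERY. The call against HSPC depended on which HSPC arrays were used. The log2 difference was 1.20 (adjusted p = 0.056) without arrays 3 and 4 and 3.21 without arrays 1 and 2. The log2 difference between MEG and ERY does not involve the HSPC arrays, but they enter its SE. Its adjusted p was 4.0e-04 without HSPC arrays 3 and 4 and 1.5e-04 without arrays 1 and 2. The other pyrimidine nucleotide carrier, *Slc25a33*, averaged 6.38, 6.03 and 5.49 in HSPC, MEG and ERY and was not called.

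The remaining genes of this group included *Slc25a26*, the importer of S-adenosylmethionine, which fell 2.03-fold in MEG (adjusted p = 4.6e-04) and 2.18-fold in ERY (adjusted p = 1.9e-04). The MEG decrease sat at the threshold and dropped to -0.89 on the log2 scale without MEG replicate 1. Both calls were lost under quantile normalization, at -0.93 in MEG and -0.94 in ERY. Ribosomal protein centring gave -0.58 and -0.76, also under 2-fold. *Slc25a32*, the folate and flavin carrier, averaged 7.49, 7.57 and 7.60 in the 3 populations, and *Slc25a17*, which serves peroxisomes, averaged 10.003, 9.44 and 9.29. Neither was called.

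**Figure D2:**
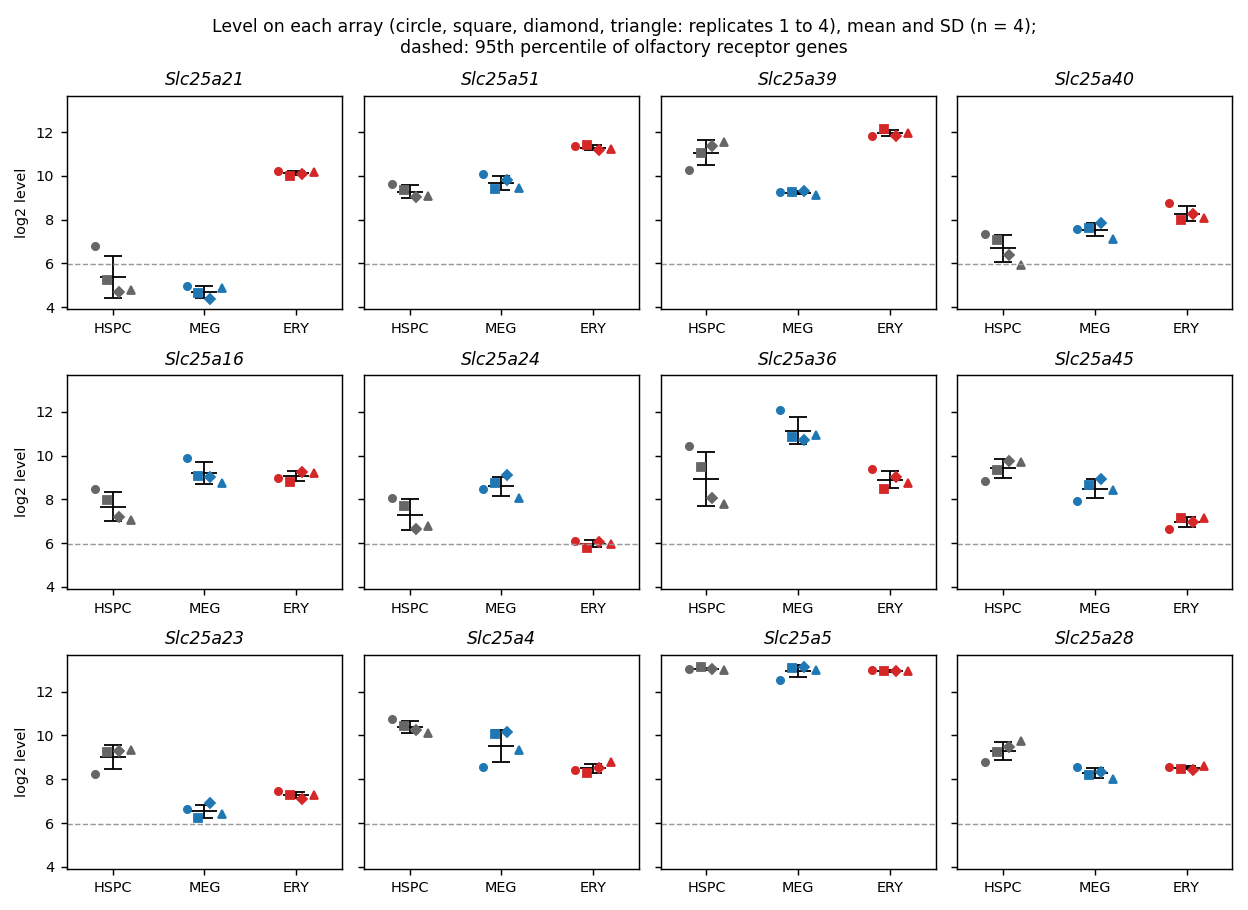
Log2 level of 12 SLC25 genes on each array (symbols), with the mean and SD (n = 4) of HSPC, MEG and ERY; the dashed line at 5.95 is the 95th percentile of olfactory receptor genes. *Slc25a21* lies above the line on all ERY arrays and on 1 HSPC array, *Slc25a39* is lowest in MEG, and *Slc25a5* lies between 12.53 and 13.14 everywhere.

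The carboxylate carriers and the malate-aspartate shuttle, 8 genes, gave 1 induced and 3 repressed in ERY and 3 repressed in MEG. The corresponding shares were 8.35%, 12.3% and 11.4% of all genes, and 12.7%, 18.9% and 17.5% of genes above background. The group included the member with the largest change, *Slc25a21*. *Slc25a21* encodes the oxodicarboxylate carrier, which exchanges 2-oxoadipate, an intermediate of lysine and tryptophan breakdown, for 2-oxoglutarate. Its level was 10.22, 9.997, 10.09 and 10.16 on the ERY arrays, 4.96, 4.64, 4.35 and 4.86 on the MEG arrays and 6.80, 5.26, 4.69 and 4.76 on the HSPC arrays. The gene was thus at background on every MEG array and on 3 HSPC arrays. The fitted difference between ERY and HSPC was 4.74 on the log2 scale (SE 0.37, adjusted p = 1.0e-06) and that between MEG and ERY was -5.42 (SE 0.37, adjusted p = 2.0e-07). Because both other means lay under the background limit, these values are read against the limit. The mean ERY level was 18.0-fold the limit, which is a minimum for its difference from MEG. For HSPC it is not a minimum, as array 1 lay above the limit.

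The 1 HSPC array with signal was array 1, at 6.80. Of the 5 erythroid markers, 4 were also highest in HSPC on array 1, from *Alas2* at 6.69 (6.27 to 6.41 on the others) to *Rhag* at 8.42 (4.59 to 5.98), whereas *Klf1* was lowest there, at 8.78 (8.98 to 9.36). On the ERY arrays *Slc25a21* stayed between 9.997 and 10.22 and was highest on array 1, as were all 10 hepatocyte genes. Their part in its level was not tested. The difference between ERY and HSPC was 4.09 without HSPC arrays 3 and 4 and 5.39 without arrays 1 and 2. *Slc25a21* lies on chromosome 12 at chr12:56712634-57197472 (GRCm38.p6), and its span of 484839 bases is read from a single probe set, which does not tell transcripts apart.

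RefSeq gives *Slc25a21* more than 1 start. As the member with the largest change, its upstream windows are shown, each being the 250 bases before a start on the minus strand. The first is chr12:57197473-57197722 and the second chr12:57160644-57160893. Capitals mark matches, on either strand, to the letters TGCGCA (the NRF1 core), CCAAT or CACACCC (the CACC box bound by KLF factors).

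Slc25a21 upstream window 1: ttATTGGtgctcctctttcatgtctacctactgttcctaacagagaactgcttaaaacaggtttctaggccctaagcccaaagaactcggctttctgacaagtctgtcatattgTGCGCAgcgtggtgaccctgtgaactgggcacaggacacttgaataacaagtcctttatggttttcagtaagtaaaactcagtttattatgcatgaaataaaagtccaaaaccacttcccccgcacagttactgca

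Slc25a21 upstream window 2: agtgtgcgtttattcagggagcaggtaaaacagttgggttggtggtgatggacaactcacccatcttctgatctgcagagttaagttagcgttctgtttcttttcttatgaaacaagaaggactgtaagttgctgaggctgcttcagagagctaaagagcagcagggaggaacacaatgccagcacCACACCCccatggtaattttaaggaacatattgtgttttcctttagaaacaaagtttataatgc

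The first window held the NRF1 core letters starting at -136 and CCAAT at -248, and the second held a CACC box at -64. Neither held the letters AGATAA or TGATAA searched as GATA motifs, nor the ETS letters CCGGAAG, which says only that these letters are not in these windows. RefSeq windows were at hand for 35 of the 44 members. The GATA letters occurred in 3 of the 35 (8.57%) against 18.8% of 27025 genes, the CACC box in 7 (20% against 7.90%), the ETS letters in 5 (14.3% against 7.83%), the NRF1 core in 4 (11.4% against 7.36%) and CCAAT in 18 (51.4% against 37.5%). The windows of members had a median GC content of 57.6%, compared with 52.4% for all genes, and the part of base composition in these shares was not tested.

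The citrate carrier gene *Slc25a1*, which feeds cytosolic acetyl-CoA and lipid synthesis, measured 9.49, 9.38, 9.56 and 9.72 on the ERY arrays. It stood at 10.60, 11.31, 11.51 and 11.71 on the HSPC arrays and at 10.85, 11.14, 11.21 and 11.06 on the MEG arrays. ERY lay below every other array, and MEG lay within the HSPC range. The decrease in ERY was 3.35-fold (log2 -1.74, SE 0.21, adjusted p = 3.4e-05), and MEG exceeded ERY 2.88-fold (adjusted p = 1.0e-04). The oxoglutarate/malate carrier *Slc25a11*, a part of the malate-aspartate shuttle, had the same order: means of 11.12 in HSPC, 11.26 in MEG and 9.88 in ERY, a 2.36-fold decrease in ERY (adjusted p = 7.9e-04) and a 2.59-fold excess in MEG over ERY (adjusted p = 3.9e-04).

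Of the aspartate/glutamate carriers of the same shuttle, *Slc25a13* was called. It measured 8.98, 8.44, 7.55 and 7.60 on the HSPC arrays, 5.66, 6.91, 6.92 and 6.92 on the MEG arrays and 8.03, 7.82, 8.11 and 8.08 on the ERY arrays. MEG was lowest without overlap, with array 1 at background. *Slc25a13* fell 2.91-fold in MEG (log2 -1.54, SE 0.34, adjusted p = 0.00375) and was 2.65-fold lower in MEG than in ERY (adjusted p = 0.00762), although without HSPC arrays 1 and 2 the log2 difference from HSPC was -0.98. Its paralog *Slc25a12* averaged 10.10, 10.14 and 10.57 in HSPC, MEG and ERY and was not called.

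*Slc25a22*, a glutamate carrier, fell in both lineages. Its values were 7.27, 7.92, 7.97 and 8.19 on the HSPC arrays, 6.17, 6.38, 6.72 and 5.33 on the MEG arrays and 6.41, 6.18, 6.14 and 6.54 on the ERY arrays. Both lineages lay below HSPC on all arrays and overlapped each other. The decrease was 3.23-fold in MEG (adjusted p = 4.5e-04) and 2.87-fold in ERY (adjusted p = 8.3e-04). The other glutamate carrier, *Slc25a18*, averaged 5.99, 5.69 and 6.48, and its difference of -0.79 between MEG and ERY was the largest among members of that comparison that were not called. *Slc25a10*, the dicarboxylate carrier, fell in MEG (log2 -1.32, adjusted p = 0.00264), with a difference of -0.82 without HSPC arrays 3 and 4, and differed by -0.63 in ERY (adjusted p = 0.109).

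Of the 9 genes for adenine nucleotides and phosphate, 3 were repressed in ERY, and 1 was induced and 1 repressed in MEG. The corresponding shares were 12.3%, 8.77% and 11.4% of all genes, and 18.9%, 12.9% and 17.5% of genes above background. *Slc25a5*, an ADP/ATP translocase found in dividing cells, measured 13.05, 13.11, 13.04 and 12.97 on the HSPC arrays, 12.53, 13.09, 13.14 and 12.998 on the MEG arrays and 13.01, 12.93, 12.96 and 12.93 on the ERY arrays. All ranges overlapped. The interval of its log2 difference ran from -0.40 to 0.19 in MEG and from -0.38 to 0.21 in ERY. The highest value of any gene on any array was 13.76, so this probe set read near the top of the scale, and the other probe sets of *Slc25a5* gave differences of -0.53 and -0.59 in MEG and -0.32 and -0.53 in ERY.

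*Slc25a4*, the ADP/ATP translocase of heart and muscle, measured 10.74, 10.45, 10.23 and 10.11 on the HSPC arrays, 8.58, 10.09, 10.14 and 9.32 on the MEG arrays and 8.44, 8.27, 8.52 and 8.77 on the ERY arrays. ERY lay below HSPC throughout, and MEG array 1 fell inside the ERY range. The gene fell 3.69-fold in ERY (log2 -1.89, SE 0.30, adjusted p = 3.3e-04). MEG exceeded ERY 2.05-fold (adjusted p = 0.0211), a call that was lost on leaving out MEG replicate 2 or 3 or ERY replicate 1 or 2, with adjusted p of 0.0674, 0.0659, 0.0526 and 0.0625. The third translocase of this group, the germ-cell gene *Slc25a31*, stayed at background.

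The phosphate carrier *Slc25a3* measured 12.17, 12.27, 12.14 and 12.21 on the HSPC arrays, 11.29, 11.73, 11.76 and 11.42 on the MEG arrays and 11.77, 11.37, 11.71 and 11.83 on the ERY arrays. Both lineages lay below HSPC without overlap, by -0.65 in MEG (adjusted p = 0.00381) and -0.53 in ERY (adjusted p = 0.0125), which is under 2-fold.

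The calcium-regulated ATP-Mg/phosphate carriers set the mitochondrial adenine nucleotide pool, and 2 of them moved apart in MEG. *Slc25a24* measured 8.08, 7.72, 6.66 and 6.78 on the HSPC arrays, 8.46, 8.76, 9.11 and 8.08 on the MEG arrays and 6.11, 5.76, 6.05 and 5.96 on the ERY arrays. ERY lay at the background limit and below every other array, and the lowest MEG and highest HSPC arrays met at 8.08. It was the 1 member induced in MEG (2.45-fold, log2 1.29, SE 0.31, adjusted p = 0.00572) and repressed in ERY (2.53-fold, log2 -1.34, SE 0.31, adjusted p = 0.00445), and MEG exceeded ERY 6.19-fold (log2 2.63, adjusted p = 2.8e-05). The size of each difference from HSPC followed the HSPC arrays: without arrays 3 and 4 the MEG difference was 0.70 (adjusted p = 0.0687), and without arrays 1 and 2 the ERY difference was -0.75.

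*Slc25a24* lies on chromosome 3 at chr3:109123149-109168409 (GRCm38.p6). Its upstream window, shown as that of the member called in opposite directions, is chr3:109122899-109123148 on the plus strand, with the CACC box at -114 in capitals.

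Slc25a24 upstream window: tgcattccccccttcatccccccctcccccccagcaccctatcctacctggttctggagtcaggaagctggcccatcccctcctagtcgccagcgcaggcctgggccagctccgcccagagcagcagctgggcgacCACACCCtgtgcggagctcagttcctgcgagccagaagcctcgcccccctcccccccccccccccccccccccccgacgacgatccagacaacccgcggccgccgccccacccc

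*Slc25a23* showed the reverse of *Slc25a24* in MEG. It measured 8.23, 9.26, 9.27 and 9.35 on the HSPC arrays, 6.64, 6.21, 6.91 and 6.43 on the MEG arrays and 7.47, 7.30, 7.11 and 7.28 on the ERY arrays. The populations did not overlap, in the order HSPC, ERY, MEG. *Slc25a23* had the largest decrease of any member in MEG, 5.58-fold (log2 -2.48, SE 0.24, adjusted p = 9.7e-06), and fell 3.33-fold in ERY (log2 -1.74, adjusted p = 1.1e-04). The related *Slc25a25* averaged 7.07, 6.54 and 6.93 in HSPC, MEG and ERY and was not called.

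Among the 8 carriers of amino acids, carnitine and choline, 2 were repressed in ERY and 1 in MEG. The corresponding shares were 12.3% and 11.4% of all genes, and 18.9% and 17.5% of genes above background. *Slc25a45* measured 8.82, 9.36, 9.77 and 9.70 on the HSPC arrays, 7.94, 8.65, 8.93 and 8.45 on the MEG arrays and 6.64, 7.13, 6.96 and 7.13 on the ERY arrays. ERY was lowest without overlap, and MEG reached into the HSPC range on 1 array. This was the largest decrease of any member in ERY, 5.46-fold (log2 -2.45, SE 0.24, adjusted p = 8.1e-06), and MEG exceeded ERY 2.88-fold (adjusted p = 3.8e-04). *Slc25a15*, the ornithine carrier of the urea cycle, fell 2.61-fold in MEG (adjusted p = 4.6e-05) and 2.12-fold in ERY (adjusted p = 2.2e-04). Both calls were lost under ribosomal protein centring, with log2 differences of -0.94 and -0.73. The ERY call was also lost under quantile normalization, at -0.86. The liver carrier *Slc25a47* averaged 6.499, 6.21 and 6.45 in HSPC, MEG and ERY. *Slc25a20*, which carries acylcarnitines for fatty acid oxidation, averaged 8.39, 8.22 and 7.44, and its ERY difference of -0.94 was the largest decrease there that was not called.

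Iron enters mitochondria through the mitoferrins. *Slc25a28*, mitoferrin 2, is the form of non-erythroid cells and measured 8.78, 9.24, 9.46 and 9.76 on the HSPC arrays, 8.56, 8.21, 8.32 and 8.02 on the MEG arrays and 8.58, 8.47, 8.44 and 8.58 on the ERY arrays. Both lineages lay below HSPC. It fell 2.04-fold in MEG (log2 -1.03, SE 0.19, adjusted p = 0.00109), at the threshold, and differed 1.73-fold in ERY (adjusted p = 0.0059), with a MEG difference of -0.73 without HSPC arrays 3 and 4. The erythroid mitoferrin *Slc25a37*, which the rule left out, rose by 4.39 on the log2 scale in ERY and differed by -0.86 in MEG.

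The uncoupling protein relatives *Slc25a14*, *Slc25a27* and *Slc25a30* were not called by limma in any comparison, and at an unadjusted p under 0.05 there was 1 lower in MEG, 1 lower in ERY and 0 between the lineages. *Slc25a27*, a carrier of nerve tissue, showed differences of -0.78 in MEG (adjusted p = 3.2e-04) and -0.53 in ERY (adjusted p = 0.00425) at levels near background, 6.35, 5.57 and 5.82 in HSPC, MEG and ERY. Of the 5 genes for outer membrane dynamics or with an unsettled substrate, *Slc25a35* alone was called. It averaged 6.39, 7.38 and 5.92 and was at least 2.69-fold higher in MEG than the background limit at which ERY lay (fitted log2 difference 1.46, adjusted p = 0.00104). *Slc25a46*, which acts in mitochondrial fission on the outer membrane, averaged 8.91, 9.48 and 9.49.

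Compared directly, 7 carriers were higher in MEG than in ERY (*Slc25a24*, *Slc25a36*, *Slc25a45*, *Slc25a1*, *Slc25a35*, *Slc25a11* and *Slc25a4*) and 5 were lower (*Slc25a21*, *Slc25a39*, *Slc25a51*, *Slc25a13* and *Slc25a42*). Of all genes 8.75% were higher and 7.77% lower (16.5% together), and of genes above background 13.4% and 11.8%, against 15.9% and 11.4% of members. This comparison does not use the HSPC arrays as a reference, though they enter the estimate of the spread. The 5 carriers lower in MEG were those for oxodicarboxylates, glutathione, NAD+, aspartate/glutamate and coenzyme A, and the 7 higher in MEG included those for ATP-Mg/phosphate, pyrimidine nucleotides, citrate, oxoglutarate/malate and ADP/ATP.

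**Figure D3:**
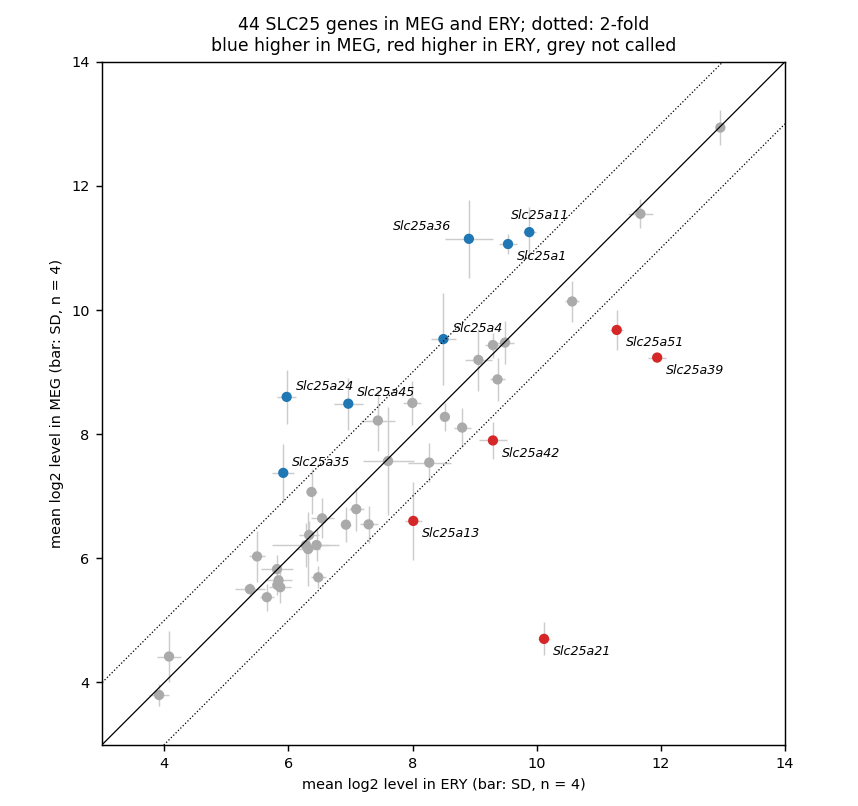
Mean log2 level of the 44 SLC25 genes in MEG (vertical) against ERY (horizontal), with SD bars (n = 4); the solid line is equality, the dotted lines 2-fold, and coloured points are called. The 7 blue genes lie above and the 5 red genes below the dotted lines, with *Slc25a21* at 4.70 in MEG and 10.12 in ERY.

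Set side by side, the calls against HSPC split the family as follows. *Slc25a16* was induced in both lineages, *Slc25a21*, *Slc25a51* and *Slc25a40* in ERY only, and *Slc25a36* in MEG only. *Slc25a22*, *Slc25a23*, *Slc25a15* and *Slc25a26* were repressed in both, and *Slc25a24* went in opposite directions. *Slc25a39*, *Slc25a13*, *Slc25a10* and *Slc25a28* were called repressed in MEG alone and *Slc25a45*, *Slc25a4*, *Slc25a1* and *Slc25a11* in ERY alone, and 26 members were called in neither. *Slc25a45* and *Slc25a4* were also lower in MEG, under 2-fold, by -0.92 (adjusted p = 0.0108) and -0.85 (adjusted p = 0.0443). Of all genes, 2.98% were induced in both, 4.78% in ERY alone and 5.05% in MEG alone, 6.36% were repressed in both, 4.44% in MEG alone and 5.18% in ERY alone, 0.742% were induced in MEG and repressed in ERY, and 69.9% were called in neither. A call in 1 lineage alone is not a difference between lineages: of these genes, *Slc25a40*, *Slc25a10* and *Slc25a28* were not called between MEG and ERY. Over all 3 comparisons 20 members (45.5%) were called at least once and 24 never, against 32.9% of all genes and 49.8% of genes above background called at least once. Groups of arrays did not overlap for 15 members in MEG, 26 in ERY and 19 between MEG and ERY, against 29.4%, 37.3% and 32.9% of all genes.

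The spread among HSPC arrays bore on many of these differences. Between arrays 1 and 2 and arrays 3 and 4, the mean of 18 members above background was higher on arrays 1 and 2 and that of 21 lower, from -1.002 for *Slc25a10* to 2.01 for *Slc25a36* on the log2 scale. Members with a longer genomic span tended to be higher on arrays 1 and 2 (Spearman's rho 0.485 across 39 genes of the same arrays), as did all genes above background (0.414 across 12851). The labels do not say what sets these arrays apart, and the part of this split in the calls against HSPC was not tested beyond leaving the arrays out.

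**Figure D4:**
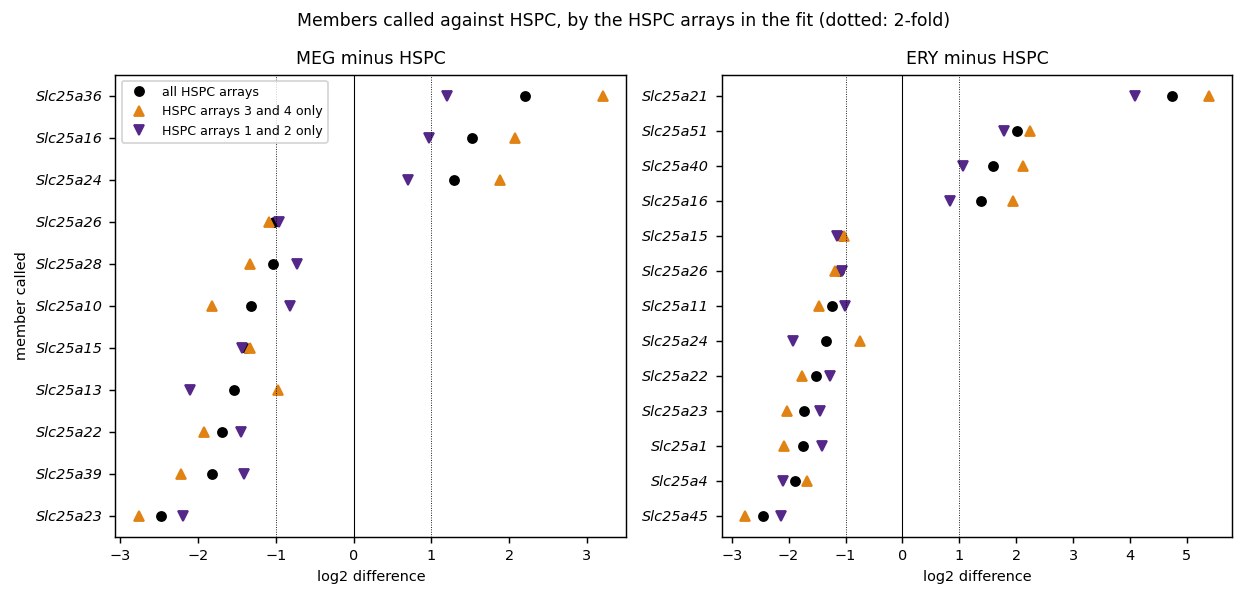
Log2 difference from HSPC of the members called in MEG (left) and in ERY (right) with all HSPC arrays (circles), HSPC arrays 3 and 4 only (upward triangles) and HSPC arrays 1 and 2 only (downward triangles); dotted lines mark 2-fold. No difference changed sign, and the widest shift was that of *Slc25a36* in MEG, from 1.20 to 3.21.

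Genes that bring carriers to the inner membrane were examined as a list of 12 outer membrane and TIM22 pathway components. In MEG 6 of the 12 (50%) were repressed, against 11.4% of all genes and 17.5% of genes above background. They were *Timm10* by -1.89, *Timm8a1* by -1.41, *Timm22* by -1.37, *Timm13* by -1.22, *Tomm22* by -1.12 and *Tomm40* by -1.02 on the log2 scale. These are small chaperones of the intermembrane space, the insertion pore and parts of the general import pore. *Timm8a1* measured 7.84 on MEG array 1, against 10.27, 10.14 and 9.85 on MEG arrays 2, 3 and 4. The number repressed was 1 after ribosomal protein centring, and 3 without either MEG replicate 1 or HSPC arrays 3 and 4. Under these settings, in that order, 5.76%, 10.6% and 9.69% of all genes were repressed in MEG. In ERY 3 (25%) were repressed, against 12.3% of all genes and 18.9% of genes above background. They were *Agk* by -1.60, *Timm22* by -1.21 and *Timm10* by -1.17. The number repressed in ERY was 1 under either quantile normalization or ribosomal protein centring. By limma, 0 were induced in MEG or ERY, also at an unadjusted p under 0.05 (1 in MEG without HSPC replicate 1), and 0 were called between the lineages, where 2 were higher and 4 lower in MEG at an unadjusted p under 0.05. The list's median difference was -1.001 in MEG, against -0.02 for all genes. All 12 list genes lay above background, and keeping only genes above background moved the median of all genes by -0.14 in MEG. Of the 3 porin genes of the outer membrane, 0 were called by limma. At an unadjusted p under 0.05 there was 1 higher in MEG, 1 higher and 2 lower in ERY, and 2 higher in MEG than in ERY. Of all genes, 20.2% were called in either direction in MEG, 20.6% in ERY and 16.5% between the lineages. *Vdac2* differed by -0.99 in ERY.

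Of 6 further carrier genes, *Slc25a37* and *Slc25a38*, which the rule left out, were induced in ERY, by 4.39 and 2.02 on the log2 scale. Both were lower in MEG than in ERY, by -5.25 and -2.78. *Mtch1*, which acts at the outer membrane, was repressed by -1.64 in MEG and -1.47 in ERY, while *Ucp1*, *Ucp3* and *Mtch2* were not called. Inner membrane transporters outside the family, 12 genes, gave 2 induced and 2 repressed in MEG and 3 induced and 2 repressed in ERY. In MEG the number induced was 1 without HSPC replicate 3, HSPC replicate 4 or MEG replicate 1. The number repressed in MEG was 1 without HSPC replicate 4, MEG replicate 1 or MEG replicate 4. The list's shares were 16.7% induced and 16.7% repressed in MEG, and 25% and 16.7% in ERY. Of all genes, 8.77% were induced and 11.4% repressed in MEG, and 8.35% and 12.3% in ERY. Among genes above background the shares were 12.9% and 17.5% in MEG, and 12.7% and 18.9% in ERY. *Mcu*, the pore of the calcium uniporter, rose by 2.08 in MEG and exceeded ERY by 2.54. *Abcb10* and *Tmem14c*, which serve heme synthesis, rose by 3.61 and 1.40 in ERY and were lower in MEG than in ERY by -4.55 and -1.52. *Ghitm* rose in both lineages, by 1.03 in MEG, at the threshold, and 1.71 in ERY, and *Abcb8* fell in both, by -1.92 and -1.43. *Sfxn5* was repressed in MEG by -1.06, at the threshold. *Sfxn3* was repressed in ERY by -1.49 and was higher in MEG than in ERY by 1.19.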

How the data were processed

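RNA from 12 samples (4 each of HSPC, MEG and ERY) was hybridised to GeneChip Mouse Gene 1.0 ST arrays. The authors deposited log2 signals normalized with RMA, a method that subtracts background and gives all arrays a common distribution, so a shift shared by most genes is not visible. The version of RMA is not given in the sources used here. Array medians ran from 5.99 to 6.25, and the number of arrays limits the precision.

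Of 34760 probe sets, 21640 had 1 gene symbol in GEO's platform annotation, 1321 several and 11799 none, and only the first were used. These covered 19937 genes, of which 954 had several probe sets. No member was on a probe set with several symbols, 3 members had more than 1 probe set, and all 44 matched a RefSeq gene (GRCm38.p6), whose table gave positions and upstream sequences. Differences were tested with limma 3.58.1 in R 4.3.3 (lmFit and eBayes, 1 mean per population over 12 arrays, two-sided, Benjamini-Hochberg over all genes). Tables were handled in Python 3.11.15 with pandas 2.3.3 and numpy 2.4.6 and drawn with matplotlib 3.10.9, and the fit was tested on simulated data.

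Values on all arrays are given for the members with the 4 largest changes each way in each comparison among those called, and for *Slc25a3*, *Slc25a4*, *Slc25a5*, *Slc25a28*, *Slc25a39* and *Slc25a40*. Members, lists and the HSPC arrays left out were chosen with earlier results of these data known. Alternatives were fits of the compared arrays alone, the replicate block, leaving out arrays, an expression limit, quantile normalization, centring on 53 ribosomal protein genes, the mean over probe sets, trended variance and a 1.5-fold threshold. Some genes of the lists were not analysed here.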

Additional observations from a re-analysis of the deposited data

Results flagged for a closer look

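Of 132 sets of 4 arrays (44 members in 3 populations), 9 held 1 array standing far from the other 3, where about 6.6 would do so by chance. In HSPC these were on array 1: *Slc25a11* at 10.54 (others 11.24 to 11.37), *Slc25a20* at 8.05 (8.49 to 8.52) and *Slc25a23* at 8.23 (9.26 to 9.35). In MEG they were *Slc25a13* at 5.66 on array 1 (6.91 to 6.92) and *Slc25a17* at 9.14 on array 4 (9.498 to 9.57). In ERY they were *Slc25a18* at 6.66 (6.41 to 6.43), *Slc25a32* at 6.99 (7.78 to 7.86) and *Slc25a54* at 4.37 (3.93 to 4.002) on array 2, and *Slc25a35* at 5.65 on array 1 (5.97 to 6.03). *Slc25a54* and *Slc25a35* lay at background in ERY. *Slc25a24* differed between the lineages, with calls in opposite directions against HSPC and a tested difference between MEG and ERY of 2.63 on the log2 scale.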

How the results depend on the processing

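The 36 calls of members were recomputed under 22 alternatives, giving 792 values. No call reversed, 759 values kept the direction and the call, and 33 kept the direction without the call. These 33 concerned 14 calls, and the other 22 calls held throughout. The number induced in MEG, 3, became 5 without HSPC arrays 1 and 2, 1 without HSPC arrays 3 and 4, 6 with ribosomal protein centring and 5 at 1.5-fold, and 3 to 5 when 1 array was left out (5 without MEG replicate 4). The number repressed in MEG, 8, became 4 with ribosomal protein centring and 6 to 10 with 1 array left out. The number induced in ERY, 4, became 7 at 1.5-fold and 4 to 6 with 1 array left out. The number repressed in ERY, 9, became 5 with ribosomal protein centring and 15 at 1.5-fold, and 9 to 11 with 1 array left out. Between MEG and ERY, 7 higher became 6 to 7 with 1 array left out and the number lower was 5 each time. Genes of the import list called in any comparison, 7, became 4 without HSPC arrays 3 and 4, 2 with ribosomal protein centring and 5 to 9 with 1 array left out. The porins, 0 at limma's threshold, became 1 without HSPC arrays 3 and 4, with quantile normalization or with ribosomal protein centring, 2 at 1.5-fold, and 0 to 1 with 1 array left out (1 without HSPC replicate 3 or 4 or ERY replicate 1, 3 or 4). Of the 6 further carrier genes 3 were called, 4 at 1.5-fold and 3 with any 1 array left out. The other transporters, 7, numbered 10 at 1.5-fold and 6 to 7 with 1 array left out. With the replicate number as a block the member counts were 3, 8, 4, 9, 7 and 5, as without it. Of 12 same-numbered pairs, 5 correlated above 0.1 (from -0.35 to 0.36), and an array correlated best with its own number in 5 of 24 cases. The labels do not say whether same-numbered arrays share an origin, and these correlations do not settle it. The cause of the shifts between settings was not tested.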
